A study of Homo sapiens with 14 samples.

Results

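Integrins are surface receptors made of an alpha and a beta subunit, and they tie fibroblasts to the matrix around them. The genes described here are 10 integrin subunits that lung fibroblasts use: the 7 alpha genes ITGA1, ITGA2, ITGA3, ITGA4, ITGA5, ITGA11 and ITGAV, and the 3 beta genes ITGB1, ITGB3 and ITGB5. They were chosen by name, with earlier results of these data known. The WT and HMGB2 KD tables held 54628 gene symbols, and 24638 genes were listed in every kind of table. All 10 passed the filter on low counts in both tested comparisons. Poly(A)-selected RNA was sequenced from IMR90, a cell line of human fetal lung fibroblasts with a finite life span, in 7 groups. I79 and I10 are isolates of this line, and young cells, which proliferated, and old cells, grown until replicative senescence, were taken from each. I79 cells were also treated with inflachromene (ICM), a compound known to bind HMGB1 and HMGB2, and the labels give neither its dose nor its duration. The remaining groups were WT and HMGB2 KD (siRNA knockdown), and the labels give neither their isolate nor whether WT received a control siRNA. The titles list 2 samples in each group and do not say whether they came from separate cultures. For HMGB2 KD against WT, p-values thus measure only the spread between these samples. Each young and each old group had 1 table, treated as the authors' pooled value, while WT, HMGB2 KD and ICM had 2 libraries each. P-values for old against young therefore measure how far the change differed between the isolates, not the spread between samples.

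The outer part of an integrin binds the ligand, and inside the cell talin and kindlin link the receptor to actin. The listed alpha subunits other than ITGAV pair mainly with ITGB1. Among these pairs, those with ITGA1, ITGA2 and ITGA11 bind collagens, that with ITGA3 binds laminins, that with ITGA5 is the classic fibronectin receptor, and that with ITGA4 binds fibronectin and VCAM1. ITGAV pairs with ITGB1, ITGB3 or ITGB5 and binds ligands that carry an RGD motif, such as vitronectin, fibronectin and the latent form of TGF-beta. Messenger RNA levels do not measure how many receptors reach the surface.

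The libraries differed in depth and in how they were counted. WT and HMGB2 KD held between 33561766 and 41168932 counts, and estimated counts ranged from 14991385 to 20632959 over the young and old tables. The totals for ICM were 13290131 and 10971132 reads. HMGB2, the targeted gene, had 27.1 and 27.3 TMM-scaled CPM (counts scaled to library size by edgeR's TMM factors) in the WT libraries. The HMGB2 KD libraries had 3.22 and 3.64 CPM of it, and the log2 fold change was -2.99 (SE 0.16, adjusted p 8.28e-07, edgeR). All 10 fibroblast markers were detected in every library. Their summed level was 31349 and 29993 CPM in I79 and I10 young, 23170 and 29489 CPM in I79 and I10 old, and 12708 and 13003 CPM in ICM. WT libraries had 20645 and 27537 CPM of them, against 29593 and 34572 CPM after knockdown. Summed epithelial markers reached at most 9.09 CPM, endothelial markers 11.5 CPM and leukocyte and platelet markers 1.65 CPM. The part of the fibroblast marker differences in the integrin values was not tested. In bulk RNA, fewer cells of a type and less RNA per cell cannot be told apart.

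Levels of different integrin genes were compared per transcript length, as CPM over the shared genes divided by the length in kb of each gene's leading transcript. ITGB1, the common beta partner, ranked first in all 10 libraries or tables. It stood at 474 and 572 CPM per kb in WT, 834 and 752 in HMGB2 KD, 1139 and 1328 in I79 young and old, 1330 and 1576 in I10 young and old, and 576 and 552 in the ICM libraries. ITGA5, the fibronectin-binding alpha subunit, ranked second in all but the WT libraries, where ITGB5 stood above it. In WT, ITGB5 was at 141 and 137 CPM per kb, ITGA5 at 105 and 111, ITGA2 at 94.4 and 86.6, and ITGAV at 52.0 and 62.2. ITGA11 (40.0 and 40.2) and ITGA1 (35.4 and 42.8) changed places between the WT libraries, while ITGB3 (22.4 and 25.3) and ITGA3 (16.9 and 21.4) kept their order there. The place of ITGA11 depends on the length used. Its leading transcript has 3955 bases, but a transcript of 10192 bases held 45.4% of its counts in I79 young. ITGA4, which binds VCAM1, ranked last in both WT libraries at 3.32 and 4.00 CPM per kb.

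**Figure D1:**
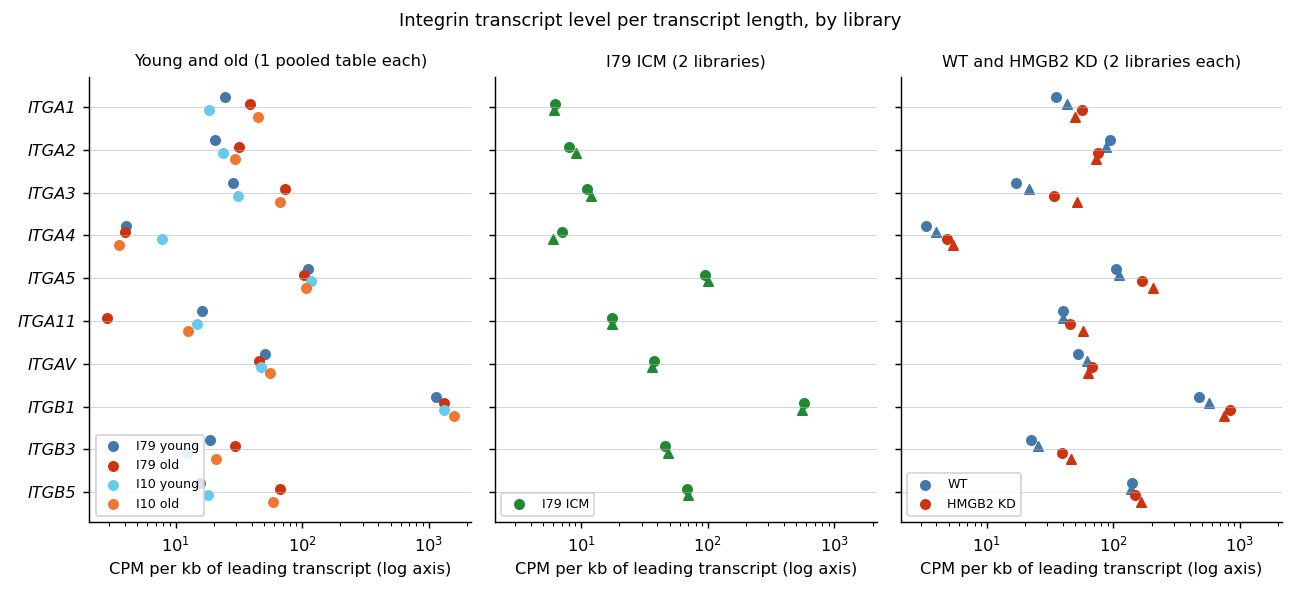
Level of each integrin gene per kb of its leading transcript (log axis, CPM over the shared genes), with young and old tables on the left, ICM libraries in the middle, and WT and HMGB2 KD libraries on the right; circles mark replicate 1 or a pooled table and triangles replicate 2. ITGB1 lies to the right of every other gene in all panels, and ITGB5 sits at 15.6 and 18.1 in the young tables against 141 and 137 in WT.

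The ratio of ITGB1 to the 7 listed alpha subunits together differed between the kinds of table more than between conditions. Per length, ITGB1 was 4.47 and 4.42 times the alpha sum in I79 young and old, and 5.09 and 4.90 times in I10 young and old. It was 3.16 and 2.94 times the alpha sum in the ICM libraries, 1.37 and 1.55 times in WT, and 1.85 and 1.49 times in HMGB2 KD. Within each isolate the ratio thus lay lower in the old table by a small margin, and the WT and HMGB2 KD ranges overlapped. ITGA5 made up 43.5% and 45.1% of the alpha sum in I79 and I10 young and 34.4% and 33.6% in the old tables. Its share was 30.2% in both WT libraries, 37.1% and 40.5% in HMGB2 KD, and 52.0% and 53.5% in ICM. ITGAV was 1.48 and 1.57 times the sum of ITGB3 and ITGB5 in I79 and I10 young, and 0.47 and 0.71 times in I79 and I10 old. Its partner ITGB1 and beta subunits outside the list were left out of this sum. How the tables were counted cannot be told apart from isolate or treatment in any of these values across kinds of table.

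The knockdown asks which RNAs change once HMGB2, a DNA-bending protein of chromatin, is depleted. ITGA3, ITGB3 and ITGA5 rose in HMGB2 KD. None of the 10 genes was called lower by edgeR or DESeq2, and none had a negative log2 fold change at an unadjusted p under 0.05. A gene counted as called below an adjusted p of 0.01 if its log2 fold change also exceeded 0.6 in size. Of all 15338 genes tested, 5.20% were called, 2.86% higher and 2.34% lower, against 3 of the 10 integrin genes, all higher. The median log2 fold change was 0.53 over the 10 genes and 0.00 over all tested genes.

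ITGA3 (chromosome 17, 48133332 to 48167845 of GRCh37, plus strand), a laminin-binding alpha subunit, had 76.2 and 96.3 CPM in the WT libraries, and 159 and 246 CPM after knockdown. Both knockdown libraries lay above both WT libraries, and the second knockdown library was clearly the higher of the pair. Group means were 86.3 ± 14.2 CPM and 202 ± 61.8 CPM (SD, n = 2 each), and the log2 fold change was 1.23 (SE 0.19, adjusted p 0.00090, edgeR). ITGB3 (chromosome 17, 45331193 to 45391109, plus strand), the vitronectin receptor's beta subunit, had 82.3 and 93.3 CPM in the WT libraries, and 149 and 181 CPM after knockdown. It was called, and its log2 fold change was 0.91 (SE 0.14, adjusted p 0.00097, edgeR). ITGA5 (chromosome 12, 54789045 to 54813050, minus strand) had 429 and 456 CPM in the WT libraries, and 711 and 893 CPM after knockdown, again with the second knockdown library on top. Its log2 fold change was 0.86 (SE 0.15, adjusted p 0.0025, edgeR). Without HMGB2 KD replicate 2 it was 0.69 and missed the threshold (adjusted p 0.024, edgeR).

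ITGB1 (chromosome 10, 33176201 to 33294720, minus strand) had 1590 and 1920 CPM in the WT libraries, and 2900 and 2686 CPM after knockdown, so the groups did not overlap. Its log2 fold change of 0.67 (SE 0.15) missed the threshold narrowly (adjusted p 0.011, edgeR), and without WT replicate 2 it was called at 0.81 (adjusted p 0.0025). Among the collagen-binding alpha subunits, ITGA1 had 351 and 425 CPM in the WT libraries, and 578 and 524 CPM after knockdown (log2 fold change 0.51, adjusted p 0.044). ITGA11 had 146 and 147 CPM in the WT libraries, and 171 and 223 CPM after knockdown (0.43, adjusted p 0.079). ITGA2 was the only member with a negative log2 fold change, with 685 and 629 CPM in the WT libraries, and 567 CPM in both knockdown libraries (-0.21, adjusted p 0.40). None of these passed the threshold.

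ITGA4 had a log2 fold change of 0.55 (adjusted p 0.034, edgeR), with 12.8 and 15.5 CPM in the WT libraries, and 19.3 and 22.3 CPM after knockdown. ITGAV had 337 and 403 CPM in the WT libraries, and 458 and 436 CPM after knockdown (0.27, adjusted p 0.28), and ITGB5 at 569 and 553 CPM against 618 and 712 CPM (0.25, adjusted p 0.33). In 9 of the 10 genes both knockdown libraries lay above both WT libraries, and in ITGA2 both lay below. Over all tested genes, 27.4% had both knockdown libraries higher and 26.4% both lower.

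**Figure D2:**
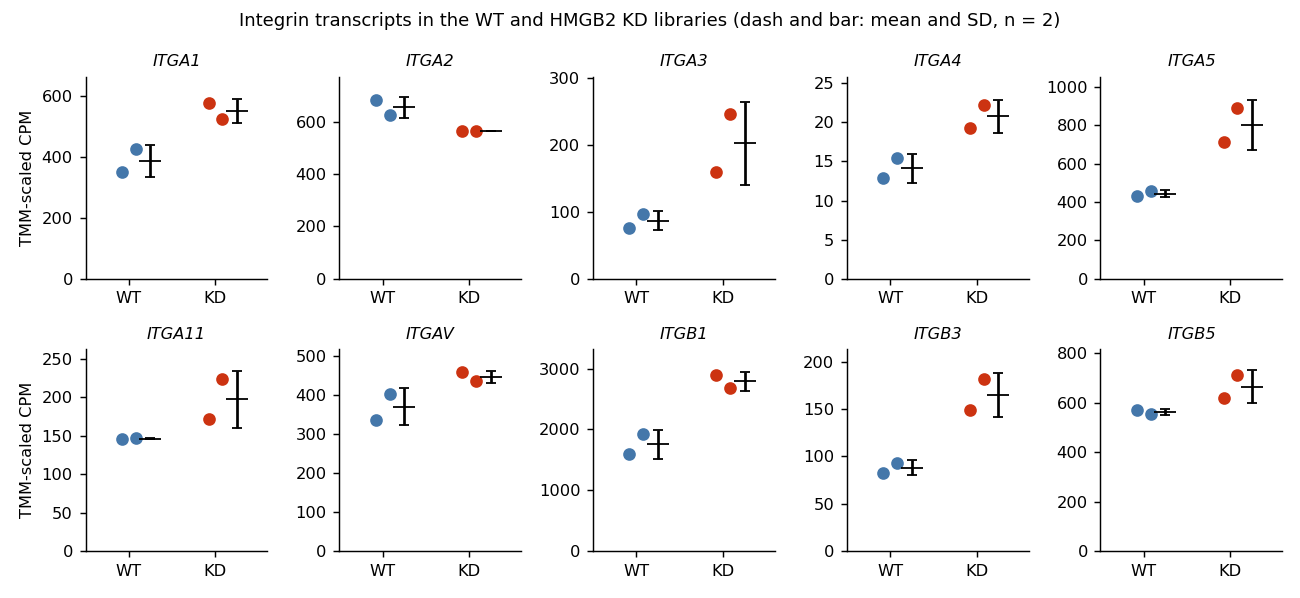
TMM-scaled CPM of each integrin gene in the 2 WT (blue) and 2 HMGB2 KD (red) libraries, on axes that start at 0, with the mean and SD (n = 2) in black. The groups do not overlap in any panel, and ITGA2 is the gene with lower values in HMGB2 KD.

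The other lists put these values beside ligands and partners. Of the other 16 integrin subunits 9 were tested and 1 was called, ITGA6, a laminin-binding subunit, which rose by 0.84 (SE 0.14, adjusted p 0.0014, edgeR) and was not called without WT replicate 1 (0.75, adjusted p 0.015). Among 16 collagen and laminin ligands, 3 were called higher, COL5A1 (1.20), COL1A1 (1.00) and COL6A3 (0.78), and 1 lower, the fibrillar collagen COL3A1 (-1.18). COL5A1 and COL1A1 were not called by DESeq2, and none of these 3 risen collagens was called without HMGB2 KD replicate 2 (0.82, 0.79 and 0.62 in the order above). COL6A3 was not called without WT replicate 1 either (0.65). Among 16 fibronectin and RGD-type ligands, 6 were called higher, led by POSTN (periostin, 67.8 and 81.6 CPM in the WT libraries, 202 and 221 CPM after knockdown), TGFB1 (1.09) and FN1 (fibronectin, 0.88). FN1 too was not called without HMGB2 KD replicate 2 (log2 fold change 0.71, adjusted p 0.054, edgeR). Of 26 adhesion adaptors and kinases 24 were tested, and TGFB1I1 (1.04) and BCAR1 (0.73) were called higher. ZYX and ACTN4 were not tested, at means of 0 and 0.07 CPM in WT, against 306 and 482 CPM in ICM. Why these genes were near 0 in WT was not tested. BCAR1 was not called without HMGB2 KD replicate 2 (0.48), without WT replicate 1 (0.77) or without WT replicate 2 (0.68). The median log2 fold change was 0.48 over the collagens and laminins, 0.45 over the RGD-type ligands and 0.54 over the adaptors.

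Old and young cells were compared over both isolates to find transcripts that differ in replicative senescence. ITGB5, ITGA3 and ITGB3 rose in old cells. None of the 10 genes was called lower in the main edgeR fit or by DESeq2, and none had a negative log2 fold change at an unadjusted p under 0.05. With no filter on low counts, ITGA11 was called lower (log2 fold change -1.11, adjusted p 6.44e-06, edgeR), in a fit that called 4250 of 29077 genes. The main fit gave ITGA11 an adjusted p of 0.21 (edgeR). Its log2 ratio from plain library totals was -2.49 in I79 and -0.23 in I10. Of all 15135 genes tested, 9.34% were called, 5.65% higher and 3.69% lower, against 3 of the 10 integrin genes. The median log2 fold change was 0.57 over the 10 genes and -0.01 over all tested genes. With plain library totals in place of TMM, the median of all tested genes moved to -0.22, and calls went from 855 higher and 559 lower to 1026 higher and 2122 lower. As a check of the labels, CDKN1A, the cell cycle inhibitor p21, rose by 2.48 and LMNB1, the nuclear lamina protein lamin B1, fell by 2.86 on the log2 scale (adjusted p 0.0043 and 0.0037, edgeR). The fit had 1 residual degree of freedom, since each isolate gave 1 table per group.

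ITGB5 (chromosome 3, 124480795 to 124620265, minus strand), which joins ITGAV in a vitronectin receptor, stood at 59.7 and 68.7 CPM in I79 and I10 young and at 289 and 266 CPM in I79 and I10 old. Both old tables lay far above both young tables. Its log2 fold change was 2.11 (SE 0.13, adjusted p 0.0037, edgeR). ITGA3 stood at 122 and 133 CPM in I79 and I10 young and at 356 and 339 CPM in the old tables (log2 fold change 1.45, SE 0.12, adjusted p 0.0046). ITGB3 stood at 65.5 and 43.1 CPM in I79 and I10 young and at 115 and 87.5 CPM in the old tables (0.92, SE 0.11, adjusted p 0.0074). Without isolate as a covariate ITGB3 was not called (adjusted p 0.040).

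Of the collagen-binding alpha subunits, ITGA1 and ITGA2 had log2 fold changes of 1.20 and 0.70 that missed the threshold (adjusted p 0.016 and 0.015, edgeR). ITGA1 was at 231 and 171 CPM in I79 and I10 young and at 413 and 504 CPM in the old tables. ITGA2 was at 141 and 162 CPM in the young and at 247 and 243 CPM in the old tables. DESeq2 and length-scaled counts called both ITGA1 and ITGA2. ITGB1 stood at 3638 and 4210 CPM in I79 and I10 young and at 4763 and 5972 CPM in the old tables (0.45, adjusted p 0.15). ITGAV stood at 312 and 292 CPM against 316 and 411 CPM (0.26, adjusted p 0.27). ITGA5 had a log2 fold change of 0.10 (adjusted p 0.57), which became -0.11 with plain library totals.

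**Figure D3:**
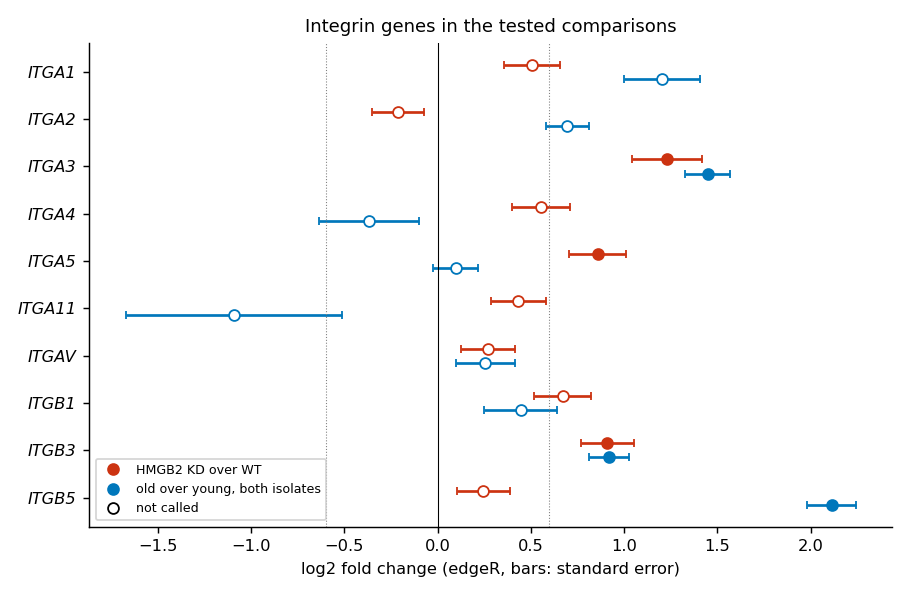
Log2 fold change of each integrin gene for HMGB2 KD over WT (red) and old over young in both isolates (blue), with the standard error as bars, filled points for called genes and dotted lines at -0.6 and 0.6. ITGA3 (1.23 and 1.45) and ITGB3 (0.91 and 0.92) are filled in both colours, while ITGA5 is filled in HMGB2 KD and ITGB5 in old cells.

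The promoter windows of 3 genes are printed because these genes show the distinct patterns: ITGB5 with the largest rise in old cells, ITGA5 called after knockdown and near 0 in old cells, and ITGA11 with the isolates apart. Each holds the 250 bases before the start of transcription, read 5′ to 3′ on the gene's strand, from RefSeq on GRCh38.p14. The base after each window is the first base of the gene's leading transcript in the young and old tables. Capitals mark GC boxes (GGGCGG, bound by SP1-type factors) and the TEAD letters GGAATG, on either strand.
ITGB5, chr3:124887366-124887615, minus strand: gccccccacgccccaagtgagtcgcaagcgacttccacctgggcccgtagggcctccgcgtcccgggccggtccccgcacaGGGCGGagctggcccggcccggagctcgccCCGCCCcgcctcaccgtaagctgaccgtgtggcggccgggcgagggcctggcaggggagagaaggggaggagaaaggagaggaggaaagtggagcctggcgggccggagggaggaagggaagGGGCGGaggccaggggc
ITGA5, chr12:54419267-54419516, minus strand: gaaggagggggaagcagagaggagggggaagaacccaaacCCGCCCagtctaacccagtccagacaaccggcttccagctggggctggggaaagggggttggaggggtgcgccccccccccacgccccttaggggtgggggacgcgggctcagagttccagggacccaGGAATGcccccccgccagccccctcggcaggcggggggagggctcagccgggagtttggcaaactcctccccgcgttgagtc
ITGA11, chr15:68432164-68432413, minus strand: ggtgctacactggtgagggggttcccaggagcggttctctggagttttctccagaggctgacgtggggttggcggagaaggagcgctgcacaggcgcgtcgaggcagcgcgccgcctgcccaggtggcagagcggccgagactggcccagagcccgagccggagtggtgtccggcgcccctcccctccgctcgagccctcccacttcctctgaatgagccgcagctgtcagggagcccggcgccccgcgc
The ITGB5 window holds 3 GC boxes, the ITGA5 window 1 GC box and 1 GGAATG, and the ITGA11 window neither. Over all 35116 promoter windows of the same length, 42.6% hold a GC box and 11.9% hold GGAATG. The AP-1 letters TGANTCA, which read the same on both strands, are in 6.57% of all windows and in none of those matched to the integrin genes. Windows were matched for 8 of the 10 genes, ITGA3 and ITGB3 being the others. GC content was 75.2% in the ITGB5 window, 70.0% in that of ITGA5 and 71.2% in that of ITGA11.

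Within each isolate, old and young tables were set side by side with no test, on log2 ratios of CPM from plain library totals. In I79, 5 of the 10 genes lay more than 0.6 higher in the old table and 1 lower, against 17.0% of all tested genes higher and 25.7% lower. In I10, 4 genes lay more than 0.6 higher and 1 lower, against 12.5% higher and 29.6% lower. ITGA1, ITGA3, ITGB3 and ITGB5 were past 0.6 in both isolates. ITGB5 had 933 estimated counts in I79 young and 5323 in I79 old (log2 ratio 2.11, exact 95% counting interval 2.01 to 2.21) and 1317 in I10 young and 4808 in I10 old (1.69, interval 1.61 to 1.78). ITGA1 differed between isolates in size, with a log2 ratio of 0.68 (0.62 to 0.73) in I79 and 1.30 (1.25 to 1.36) in I10. Intervals and limits cover counting error only.

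ITGA11, a collagen-binding subunit of mesenchymal cells, was the gene with the widest gap between isolates. I79 young had 880 estimated counts of it and I79 old 205, whereas I10 young had 978 and I10 old 939. The log2 ratio was -2.49 (interval -2.73 to -2.28) in I79 and -0.23 (-0.36 to -0.10) in I10, which became 0.03 in I10 with TMM scaling. Over both isolates its log2 fold change was -1.09 with a standard error of 0.58 (adjusted p 0.21, edgeR). Its 2 main transcripts, of 3955 and 10192 bases, held 54.6% and 45.4% of its counts in I79 young and 54.0% and 45.4% in I79 old. ITGA4 was apart in the other direction, at 232 and 303 counts in I79 young and old (-0.02, -0.27 to 0.24) and at 543 and 283 in I10 young and old (-1.11, -1.33 to -0.90). With 1 table per group, the difference between isolates was not tested for either gene.

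**Figure D4:**
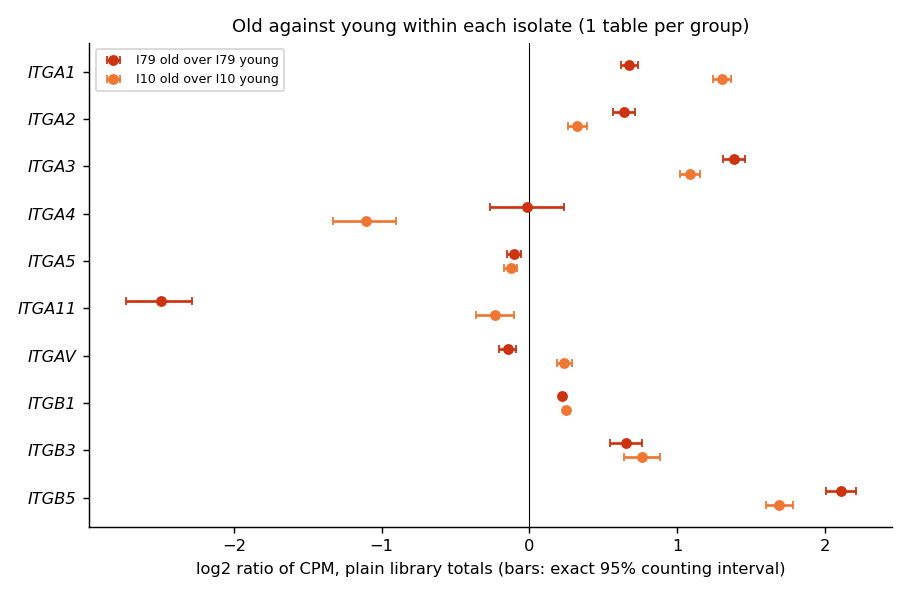
Log2 ratio of old over young CPM (plain library totals) for each integrin gene in I79 (red) and I10 (orange), with exact 95% counting intervals as bars. ITGA11 lies at -2.49 in I79 and -0.23 in I10, and ITGB5 is the gene farthest to the right in both isolates.

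Ligands and partners changed in old cells as follows. Of the other integrin subunits 6 were tested. ITGA8 (3.97) and ITGA10 (2.92) were called higher and ITGB8 lower (-1.72). ITGA8, a receptor subunit for nephronectin, went from 1.6 and 0.4 CPM in I79 and I10 young to 16.7 and 11.5 CPM in the old tables. Among collagen and laminin ligands, LAMA2, a laminin alpha chain, was the one gene called, and fell (-1.58). Among RGD-type ligands, CCN1 (1.71), MFGE8 (1.29) and EDIL3 (0.91) were called higher and POSTN lower (-2.80), of 15 tested. Of 26 adaptors and kinases, BCAR1 alone was called, and its log2 fold change was 0.84 (SE 0.10, adjusted p 0.0074, edgeR). The median log2 fold change was 0.14 over collagens and laminins, 0.30 over RGD-type ligands and 0.03 over adaptors.

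ICM libraries were set against I79 young over 13822 shared genes, with no test, because the tables were counted in different ways. WT was given no ICM as far as its labels say, and its tables were made in a further manner, so the same ratios for WT stand beside them. WT itself lay apart from I79 young in the senescence markers, with log2 ratios of 1.66 for CDKN1A, -1.94 for LMNB1 and -2.23 for HMGB2. The ICM ratios were 3.09 for CDKN1A, -4.73 for HMGB2 and -7.32 for LMNB1. LMNB1 was near 0 in ICM (mean 0.51 CPM), and its ratio was -6.61 in replicate 1 and -8.03 in replicate 2. Differences in cell state and in counting cannot be told apart in the WT ratios. Of the 10 genes, 3 lay more than 0.6 higher in ICM (ITGB5, ITGB3 and ITGA4) and 4 lower (ITGA1, ITGA3, ITGA2 and ITGB1). The same held for 29.1% of all genes higher and 30.2% lower, so these counts were read as values only. In WT against I79 young, 4 integrin genes lay more than 0.6 higher and 1 lower, against 20.6% and 22.5% of all genes.

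ITGB3 was at 74.6 CPM in I79 young, 184 and 193 CPM in ICM, and 89.3 and 101 CPM in WT. Its log2 ratio to I79 young was 1.34 in ICM and 0.35 in WT. ITGB5 was at 68.1 CPM in I79 young, 302 and 304 CPM in ICM, and 617 and 599 CPM in WT, so the ratio in WT (3.16) lay above that in ICM (2.15). Against WT in place of I79 young, ITGB5 in ICM turned to -1.01. ITGA4 was at 16.9 CPM in I79 young, 32.6 CPM in I10 young, and 29.6 and 25.2 CPM in ICM, so its ratio turned from 0.69 to -0.25 with I10 young as the control. The WT ratio of ITGA4 was -0.15.

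ITGA1 was at 263 CPM in I79 young and at 67.2 and 65.7 CPM in ICM (log2 ratio -1.98), while the WT ratio was 0.67. ITGA2 was at 161 CPM in I79 young and at 63.4 and 71.5 CPM in ICM (-1.25), against 2.14 in WT. These collagen-binding subunits lay lower in both ICM libraries than in any other library or table. ITGA3 had a ratio of -1.29 in ICM and -0.58 in WT. ITGB1 had nearly the same ratio in ICM (-1.01) and in WT (-1.13), and against WT its ratio in ICM turned to 0.12. ITGA5 had a ratio of -0.19 in ICM and -0.04 in WT, and ITGAV of -0.45 in ICM and 0.17 in WT. ITGA11 had a ratio of 0.10 in ICM and 1.30 in WT, so against WT its ratio in ICM was -1.21.

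**Figure D5:**
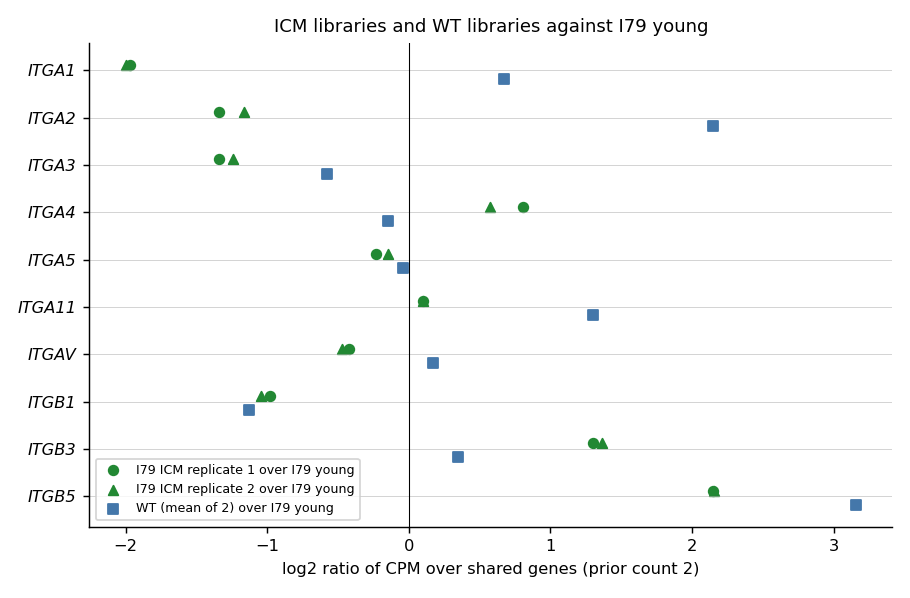
Log2 ratio of CPM over shared genes to I79 young for each integrin gene, in ICM replicate 1 (green circles), ICM replicate 2 (green triangles) and the mean of the 2 WT libraries (blue squares). For ITGB1 the WT square lies beside the ICM points, for ITGB5 to their right, and for ITGA1 and ITGA2 on the other side of 0.

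Among the ligands, all 16 collagens and laminins lay below I79 young in ICM, 14 of them by more than 0.6 (median log2 ratio -1.62, against -0.04 over all genes). In WT, 8 of these 16 lay above I79 young, with a median of 0.02. The ICM ratio of LAMA4 turned to 0.48 with WT as the control, and that of COL1A2 to 0.08 with coding and noncoding reads only. The RGD-type ligands had 4 genes more than 0.6 higher and 8 lower in ICM (median -0.72), against 3 higher and 3 lower in WT (median -0.04). Of all genes, 29.1% lay more than 0.6 higher and 30.2% lower in ICM, and 20.6% and 22.5% in WT.

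Some loci share exons with other annotated genes, and whether the counting used strand is not stated. PELO lies within ITGA1 on the same strand and had between 2052 and 3551 counts in the WT and HMGB2 KD libraries, where ITGA1 had between 12015 and 21170. PELO had log2 fold changes of 0.50 in HMGB2 KD and 0.60 in old cells (neither called), so reads shared with PELO cannot be told apart from ITGA1 reads. CERKL, which overlaps ITGA4 on the other strand, had at most 5 counts in any of these libraries or tables. ITGB3 shares exons with the protein-coding gene ENSG00000259753 on the same strand. That gene had 0 estimated counts in both young tables and 18 in both old tables, where ITGB3 had 2126 in I79 old and 1582 in I10 old. ITGB1P1, a processed copy of ITGB1, held 270 estimated counts in I79 young and 0 in the other young and old tables, against 56835 for ITGB1 in I79 young.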

How the data were processed

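The members and gene lists were chosen with earlier results of these data known. Raw counts per gene were deposited by the authors as a table for each WT and HMGB2 KD library. Per the labels, reads were processed with STAR 2.6.0c and featureCounts on GRCh37. For the young and old groups the authors deposited estimated counts and TPM per transcript, in the layout that Salmon writes. These were summed per gene through GENCODE release 44 lifted to GRCh37 and rounded, and TPM served only for the length-scaled alternative. For ICM the authors deposited estimated counts per gene and transcript region, and the labels name the same tools for them. How reads were split by region is not given in the sources used here. Summary rows of the WT and HMGB2 KD tables (16.9% to 18.0% of totals), in the layout that htseq-count writes, were left out. The labels name featureCounts, so which tool counted these libraries was not settled. Different counting shifts levels between kinds of table, so tests ran only within a kind.

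Tests used edgeR 4.0.16 in R 4.3.3 (quasi-likelihood, TMM, filterByExpr, Benjamini-Hochberg adjustment). HMGB2 KD was fitted against WT without a covariate, and old against young with isolate as a covariate. Ratios without a test used a prior count of 2 and, for ICM, a mean of at least 10 counts. Intervals are exact Clopper-Pearson at 95%, and reads carry no molecular identifiers. Replicate pairs differed beyond sampling noise (chi-square per degree of freedom 27.2 in WT, 41.7 in HMGB2 KD, 2.33 in ICM). On simulated counts with 200 genes changed by 1.5 (log2), 93.5% were recovered in the knockdown design (15338 genes) and 84.0% in the old against young design (15135 genes). The changed genes were drawn from the better counted ones, and no difference between isolates was simulated. Smaller changes, such as most of those of the integrin genes, were not simulated. All 10 members are reported everywhere. Of other lists, up to 3 called genes with the largest rise and up to 3 with the largest fall are named. Alternatives were other scalings, filters, thresholds, DESeq2 1.42.0, a RUVs factor, a replicate block, other controls and leaving out each library.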

Additional observations from a re-analysis of the deposited data

How the results depend on the processing

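Each tested integrin gene was followed through 12 alternatives for HMGB2 KD and 8 for old against young. Among them, an adjusted p under 0.05 and no fold change minimum only loosened the call on the main fit. A called gene could not lose its call or direction under these. ITGA3 and ITGB3 kept their direction and their call under all 12 for HMGB2 KD, and ITGA3 and ITGB5 under all 8 for old against young. ITGB1 was called after knockdown under 6 of 12 alternatives, with log2 fold changes between 0.54 and 0.81. The count of called members in HMGB2 KD lay between 2 and 4. It was 5 in old against young with an adjusted p under 0.05, with DESeq2 or with length-scaled counts, and 6 with no filter on low counts. The count over all genes in old against young was 3847 with an adjusted p under 0.05, 3148 with plain library totals, 4250 with no filter, 2167 with DESeq2 and 2179 with length-scaled counts. Leaving out each library in turn gave between 312 and 999 calls over all genes for HMGB2 KD, with HMGB2 KD replicate 2 giving the lowest count, and between 2 and 4 members. With an arm of 1 library, the lone library is assumed to vary like the other arm. ITGA5 in old against young turned to -0.11 with plain library totals. In ICM, ITGA4 turned to -0.25 with I10 young as the control, and with WT as the control ITGB1 turned to 0.12, ITGB5 to -1.01 and ITGA11, which was not past 0.6, to -1.21. ITGA5, also not past 0.6, was at 0.07 with coding and noncoding reads only. For these changes the cause was not tested. The count of members past 0.6 lay between 6 and 8 in ICM and did not move within isolates.

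Replicate numbers are shared by WT and HMGB2 KD in the labels, but same-numbered libraries deviated together only weakly (Pearson r 0.12 across genes, 2 pairs), so the numbers were not taken as a pairing. With a replicate block 1243 genes and 4 members were called, ITGB1 being added.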
